A study of Mus musculus with 2 samples.

Results

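Intergenic GATA4 peaks near genes are the peaks of a GATA4 chromatin immunoprecipitation sequencing (ChIP-seq) list whose centre lies outside every protein coding and lncRNA gene. They also lie more than 1 kb from the ends of those genes, and no farther than 100 kb from a protein coding gene. The rule uses positions only. It took 4220 of the 17539 peaks, or 24.1% (exact 95% interval 23.4% to 24.7%, counting error only). The list comes from 1 GATA4 ChIP library of mouse skeletal muscle myoblasts, precipitated with a mixture of 3 anti-GATA4 antibodies. Beside it stands 1 library from the same kind of cells made with control IgG, whose reads were not analysed here. The myoblasts were grown out of satellite cells in medium with 20% serum and bFGF, and the donor strain in both libraries is STOCK Myf5tm1Pas/J, which carries a targeted Myf5 allele. There was no replicate of either library, so no p-value is given, and every difference below is a description of this 1 list. A peak list alone cannot check that the cells were myoblasts.

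GATA4 is a zinc finger transcription factor that binds DNA at GATA sequences and is best known from heart, gut and gonad. Enhancers, the DNA elements that raise transcription from a distance, often lie between genes, before the start of a gene or beyond its end. Distance alone does not show which gene such an element acts on, so a gene is named below only as the nearest protein coding gene. Positions are those of GRCm38, and the MACS score is the authors' own value per peak, larger for peaks that the caller ranked as stronger. Whether it compares a peak with its surroundings or with the IgG library is not given.

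Some of these intergenic peaks lay on or beside microRNA genes, which the rule does not count as genes. Of 1005 microRNA hairpins in the RefSeq table (GRCm38.p6), 105 had a GATA4 peak of any position within 5 kb and 24 had an intergenic peak near genes within 5 kb. For comparison, intergenic peaks near genes were 24.1% of all peaks, so 24 beside 105 is close to their share of the list. The mature sequences of 8 of these microRNAs are shown, since they are the transcribed sequences that these peaks adjoin. Each runs 5′ to 3′ with the seed, bases 2 to 8, in capitals.
miR-21a-5p: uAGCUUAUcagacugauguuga
miR-30a-5p: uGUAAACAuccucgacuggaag
let-7i-5p: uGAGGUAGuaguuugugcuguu
miR-22-3p: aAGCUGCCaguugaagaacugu
miR-23a-3p: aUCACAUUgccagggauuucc
miR-27a-3p: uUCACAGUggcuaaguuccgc
miR-24-3p: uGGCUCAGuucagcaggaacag
miR-3962: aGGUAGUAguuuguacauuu

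No seed was shared among the mature microRNAs of the 24 hairpins. Mir21a, whose product is abundant in many dividing cells, lay 0.751 kb from a broad peak of 2431 bp with a score of 251 (chr11:86580886-86583316). That peak was centred 1.76 kb from Vmp1. Mirlet7i lay 2.10 kb from a peak with a score of 190, and Mir22, a microRNA of striated muscle, lay 2.93 kb from a peak with a score of 128. Mir30a was 0.492 kb from a peak with a score of 87.4. The Mir23a, Mir27a and Mir24-2 cluster was 4.54 to 4.84 kb from a single peak with a score of 84.1. The hairpins of Mir3962, Mir3965 and Mir6367 overlapped peaks with low scores of 62.5, 66.5 and 63.0. The highest score in this set, 330, was 2.48 kb from Mir1983.

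The intergenic peaks near genes scored about as high as those far from genes, and higher than those at gene ends. Their scores ran from 50.7 to 676 with a median of 106 and quartiles of 80.6 and 146. The 13319 other peaks had a median of 97.4 and quartiles of 76.7 and 138. Among those, the 1910 intergenic peaks over 100 kb from a protein coding gene had a median of 106, the 9001 peaks inside genes 101, and the 2408 peaks within 1 kb of a gene end 86.7. Of the intergenic peaks near genes, 494, or 11.7%, were above 195, the score that marks the top 10% of the whole list. The share was 9.46% of all other peaks, made up of 11.7% far from genes, 10.03% inside genes and 5.52% at gene ends.

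**Figure D1:**
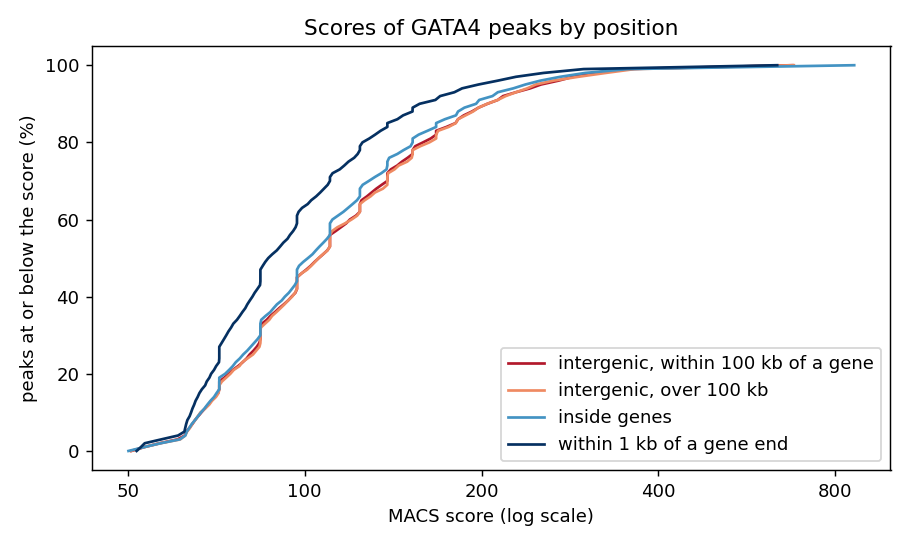
Percentage of GATA4 peaks at or below each MACS score (log scale) for intergenic peaks within 100 kb of a protein coding gene, intergenic peaks farther away, peaks inside genes and peaks within 1 kb of a gene end. The curves of both intergenic groups, each with a median of 106, run together, and the curve of peaks at gene ends, with a median of 86.7, lies to their left.

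Peak width differed little. The intergenic peaks near genes had a median width of 746 bp, with quartiles of 588 and 908 bp, against 745 bp for all other peaks, with quartiles of 589 and 897 bp. Score and width were only weakly related across the 4220 peaks (Spearman correlation 0.129), which share 1 library and are not independent. The broadest, at chromosome 1, 87077021 to 87080010, was 2990 bp wide with a score of 415, and lay 8.17 kb from Alppl2. At the other end, 205 were narrower than 400 bp.

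Peaks became sparser with distance from genes. The values are counts per Mb of the sequence that meets the same positional rule. Between 1 and 5 kb from a gene end there were 702 peaks, or 6.93 per Mb (95% Poisson interval 6.43 to 7.47). Between 5 and 10 kb the 574 peaks gave 6.18 per Mb, between 10 and 25 kb the 1078 gave 6.12, and between 25 and 50 kb the 938 gave 5.67. Between 50 and 100 kb the 928 peaks gave 4.88 per Mb (4.57 to 5.20). Over all distances the density was 5.81 per Mb (5.64 to 5.99), against 2.80 per Mb (2.67 to 2.92) in intergenic sequence over 100 kb from a protein coding gene. On the autosomes alone the same pair of densities was 6.64 and 3.23 per Mb. There the 5 distance groups, from nearest to farthest, had 7.37, 6.73, 6.84, 6.66 and 5.94 per Mb. The autosomal densities were thus nearly level between 5 and 50 kb. Median scores were slightly higher farther out: 102 between 1 and 5 kb, 98.1 between 5 and 10 kb, 107 between 10 and 25 kb, 108 between 25 and 50 kb and 110 between 50 and 100 kb. Poisson intervals cover counting error only and take peaks as independent, although peaks cluster, and assembly gaps were not removed from the lengths.

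The start side of genes held more peaks than the end side. Strand was known for the nearest gene of 3312 of the 4220 peaks. On the start side there were 1846 peaks in 303 Mb, or 6.10 per Mb (5.82 to 6.38), and on the end side 1466 in 272 Mb, or 5.40 per Mb (5.12 to 5.68). The sides were alike between 1 and 5 kb, with 6.96 per Mb on the start side and 6.89 on the end side. The gap was widest between 5 and 10 kb, with 7.02 per Mb (6.21 to 7.90) on the start side and 5.33 (4.60 to 6.15) on the end side. Sequence between 2 genes that point away from each other had 6.56 peaks per Mb (6.12 to 7.03), against 5.55 (5.27 to 5.84) between genes in tandem and 5.55 (5.08 to 6.06) between genes that point towards each other. Median scores of the 2 sides were 106 and 107.

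**Figure D2:**
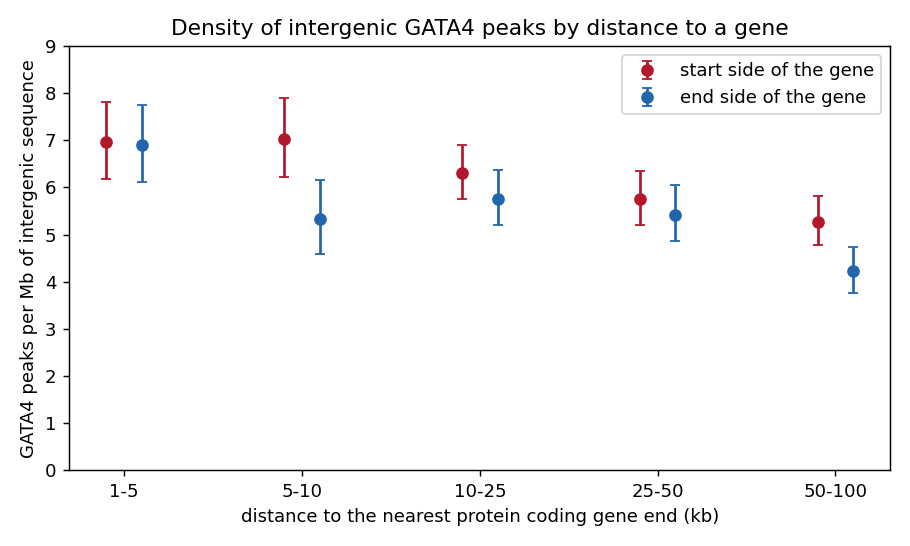
Intergenic GATA4 peaks per Mb of intergenic sequence (y axis) by distance in kb to the nearest protein coding gene end (x axis), on the start side and the end side of that gene. Points are densities and bars 95% Poisson intervals, which separate the sides only between 5 and 10 kb and between 50 and 100 kb.

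Intergenic peaks near genes had a neighbouring peak about as often as peaks inside genes, and somewhat more often than those far from genes or at gene ends. Another peak of any position was centred within 10 kb of 1621 of them, or 38.4%, against 36.8% of all other peaks. The share was 38.4% inside genes, 33.2% far from genes and 33.8% at gene ends. The median distance to the next peak was 18.1 kb, against 18.9 kb for all other peaks. It was 17.2 kb inside genes, 26.1 kb far from genes and 22.0 kb at gene ends. Another intergenic peak near genes lay within 10 kb of 1391, which formed 587 runs of 2 or more. The longest, of 14 peaks, lay on chromosome 8 beside Gm15319, as did 1 of the 3 runs of 8. That predicted gene was the nearest gene of 28 peaks, with scores from 52.4 to 506 and a median of 74.7, between 20279531 and 20440895. Without them the density of chromosome 8 was 5.78 per Mb in place of 6.71. The sources used here do not say how reads were divided among similar sequences, which leaves this count uncertain. A run of 8 beside Pxylp1 on chromosome 9 spanned 22.3 kb with a median score of 164, the highest of these runs. Another run of 8, on chromosome 5, spanned 26.8 kb between Cldn3 and Cldn4, which encode claudins of tight junctions.

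The 25 peaks with the highest scores were broad. Their scores were 426 to 676, their median width was 1413 bp, and 20 were wider than the upper quartile of all intergenic peaks near genes. The median distance to the nearest protein coding gene was 31.0 kb, with 3 peaks within 10 kb and 13 beyond 25 kb, a distance that 44.2% of all intergenic peaks near genes exceed. Counted to a protein coding or lncRNA gene, 10 of the 25 lay beyond 25 kb, as did 27.5% of all. The highest score, 676, belonged to a peak 17.3 kb beyond the end of Esm1, which encodes a secreted proteoglycan (chr13:113234855-113235896). Zeb1, a zinc finger repressor of epithelial genes, was nearest to the peak with a score of 603, at 31.1 kb. Rbm24, which encodes an RNA-binding protein of striated muscle, was 13.3 kb from a peak with a score of 551. Slc6a6, the taurine transporter gene, was 64.2 kb from one with 541.

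Lower in the same set, the chemokine gene Cxcl12 was 19.0 kb from a peak with a score of 459. Ankrd1, the gene of an ankyrin repeat protein of the muscle sarcomere and nucleus, had a peak with a score of 451 placed 9.50 kb before its start. Cdc42ep3, which encodes an effector of the GTPase Cdc42, was 34.1 kb from one with 448. Trp63, the p63 transcription factor gene, was 93.7 kb from a peak with 451. The nearest protein coding genes of the others were 4930467E23Rik (score 660), Pthlh (580), Tnp1 (561), Spcs3 (554), Prep (531), Gm15319 (506, 500 and 491), Plet1 (494), Atp6v1c1 (464), Pja2 (460), Ly6c2 (460), Casp12 (455), D130037M23Rik (432), Copb1 (429), 4930583I09Rik (427) and Cabcoco1 (426). The peaks of Gm15319 belong to the stretch of chromosome 8 whose count was called uncertain above. The peak of 4930467E23Rik lies on the same chromosome, at 19783912 to 19785324. Its other flanking gene, 9530057J20Rik, is also that of the Gm15319 peak with 491. A lncRNA gene lay closer than any protein coding gene for 9 of the 25. The peak of Pthlh was only 345 bp wide and had no other peak within 300 kb, at 307 kb from the next. The peak of Cabcoco1 was 75.5 kb from that gene and 76.1 kb from Arid5b, so distance hardly separates them.

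Most genes with an intergenic peak had only 1. Of 21887 protein coding genes, 2721, or 12.4%, were the nearest gene of at least 1 intergenic peak. Of these 1840 had 1 peak and 62 had 5 or more. The assignment is ambiguous for many: for 1116 peaks, or 26.4%, the protein coding gene on the other side was at most 2 times as far away, and for 1470 a lncRNA gene end was the closest.

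After Gm15319, Tnp1, Fndc1, Gm46240 and Pxylp1 had 9 peaks each. Fndc1, which encodes a fibronectin domain protein, had scores up to 422. Tnp1 encodes a chromatin protein of spermatids, and its 9 peaks, with scores from 70.8 to 561, lay in the stretch between Igfbp5, an IGF-binding protein gene, and Tns1, which encodes the adhesion protein tensin. Vgll2, which encodes a muscle cofactor of TEAD factors, had 8 peaks. Of these 7 lay before its start, the nearest of them at 3.74 kb with a score of 144 and the strongest at 77.9 kb with a score of 239. Camk1g and Lrrn1 also had 8 each. All 8 of Camk1g lay before its start, between 12.1 and 79.4 kb, with scores from 74.6 to 162.

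Postn, which encodes the matrix protein periostin, had 7 peaks, all beyond its end between 30.2 and 89.4 kb, with scores from 97.0 to 189. Klf6, a zinc finger factor gene induced by growth signals, had 4 peaks before its start and 3 beyond its end, with scores from 73.9 to 153. Vav3, the gene of a guanine nucleotide exchange factor, had 7 before its start, of which 4 scored above 200: 287, 268, 229 and 213. Nuf2, Rfx8, Ralgapa2, Tcerg1l and 3110040M04Rik also had 7 each. In space nearest to each gene, Rfx8 had 45.5 kb and Vav3 131 kb, so equal counts stand for 154 and 53.4 peaks per Mb.

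**Figure D3:**
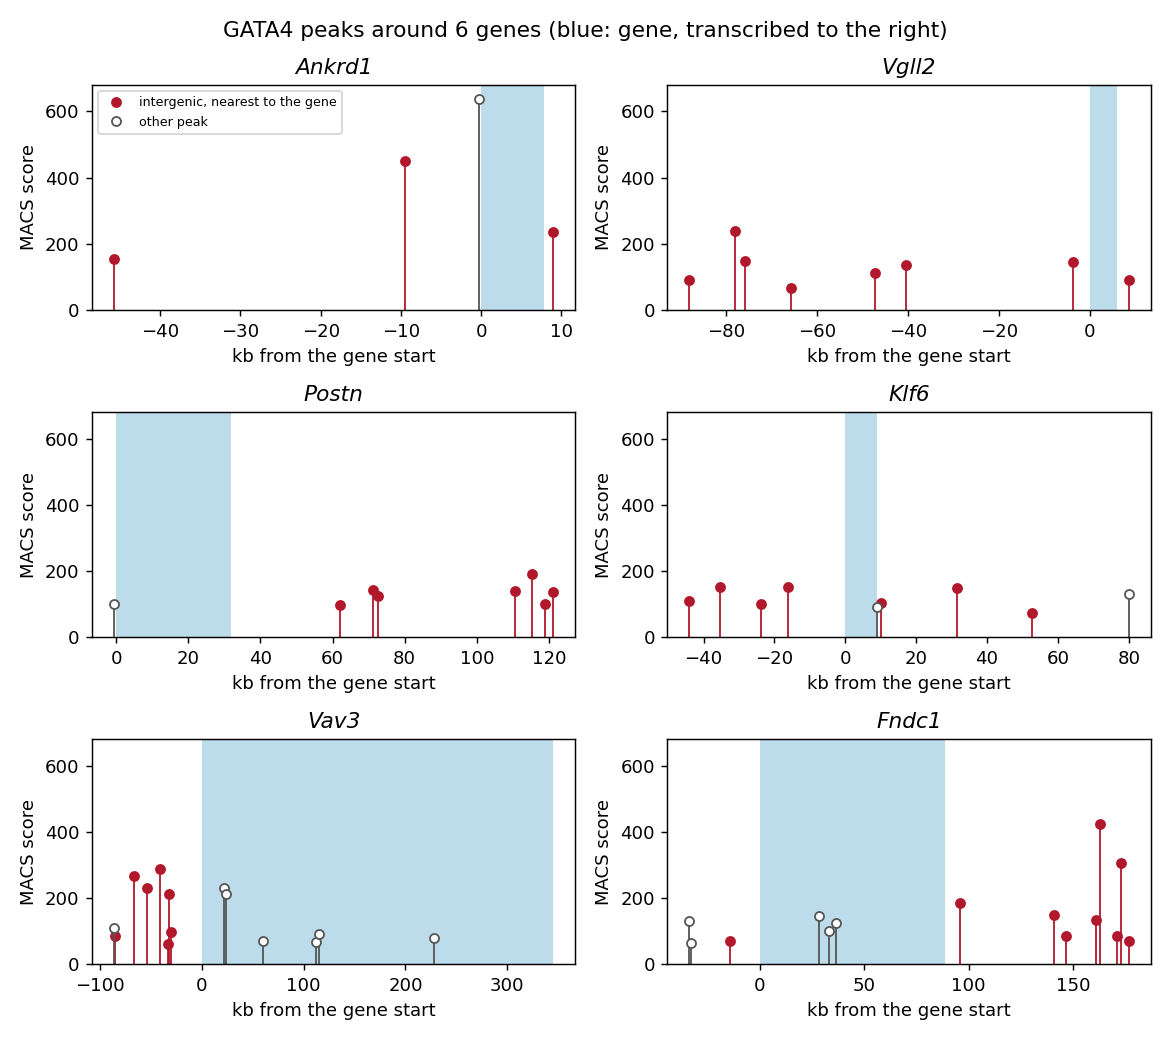
MACS score (y axis) of each GATA4 peak by distance in kb from the gene start (x axis, in the direction of transcription) for Ankrd1, Vgll2, Postn, Klf6, Vav3 and Fndc1. Filled points are intergenic peaks assigned to the gene, open points are other peaks, and shading marks the gene. The assigned peaks of Postn all lie beyond the gene end, and those of Vav3 before its start.

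Genes with intergenic peaks more often had a peak at their start too. Among protein coding genes with known strand, 8.37% had a peak within 1 kb of the start. The share was 16.4% (9.996% to 24.6%) for the 110 genes with 4 or more intergenic peaks, 16.2% for those with 2 or 3, 143 of 1430 for those with 1 and 7.86% (7.44% to 8.30%) for those with none. Genes with intergenic peaks also had more intergenic space, with a median of 108 kb for 4 or more peaks against 11.5 kb for none. The comparison was therefore repeated within 3 equal groups of genes ordered by that space. The shares with and without an intergenic peak were 13.8% and 11.2% in the group with least space, where the intervals overlap. They were 14.4% (11.6% to 17.6%) and 7.01% (6.34% to 7.74%) in the middle group, and 11.0% (9.48% to 12.7%) and 4.50% (3.91% to 5.16%) in the group with most space. Peaks inside the gene were found at 48.9% of genes with 4 or more intergenic peaks and at 18.2% of genes with none, whose median lengths were 37.6 and 15.9 kb.

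The promoters of 3 such genes are shown. Each lies wholly inside a GATA4 peak, and the gene had 4 or 5 intergenic peaks as well. They were picked from a longer set of promoters inside a peak whose genes had 4 or more intergenic peaks. None of the promoters of that set left out here holds GATAA on either strand. The 3 sequences were taken from RefSeq (GRCm38.p6) on the strand of the gene, from 250 bases before to 50 after an annotated start. GATAA, on either strand, is in capitals.
Prss23, chr7:89527138-89527437, minus strand: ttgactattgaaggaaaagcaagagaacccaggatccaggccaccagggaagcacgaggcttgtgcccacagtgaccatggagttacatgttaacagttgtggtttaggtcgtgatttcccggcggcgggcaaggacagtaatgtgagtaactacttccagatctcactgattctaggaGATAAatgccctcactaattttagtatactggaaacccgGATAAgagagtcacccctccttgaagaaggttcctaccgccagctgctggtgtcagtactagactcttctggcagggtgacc
Ccnl1, chr3:65958200-65958499, minus strand: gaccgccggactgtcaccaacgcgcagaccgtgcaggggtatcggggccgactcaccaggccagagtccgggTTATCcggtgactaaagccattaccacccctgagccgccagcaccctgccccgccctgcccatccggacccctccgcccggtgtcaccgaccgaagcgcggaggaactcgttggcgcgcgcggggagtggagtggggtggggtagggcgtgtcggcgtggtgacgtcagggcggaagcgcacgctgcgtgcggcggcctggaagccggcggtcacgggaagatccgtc
Runx1, chr16:92697280-92697579, minus strand: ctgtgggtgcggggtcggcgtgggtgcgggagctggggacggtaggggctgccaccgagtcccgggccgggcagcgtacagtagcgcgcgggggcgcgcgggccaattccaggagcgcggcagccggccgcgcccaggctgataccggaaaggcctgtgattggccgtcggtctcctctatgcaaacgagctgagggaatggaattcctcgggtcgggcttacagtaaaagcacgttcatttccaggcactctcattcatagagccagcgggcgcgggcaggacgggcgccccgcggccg

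Prss23, which encodes a secreted serine protease, had a promoter peak with a score of 267 and 4 intergenic peaks with scores up to 156, and its promoter holds GATAA 2 times. Ccnl1, which encodes cyclin L1, had a promoter peak with 126 and 5 intergenic peaks up to 187, and its promoter holds TTATC, the same motif on the other strand, 1 time. Runx1, a Runt domain factor gene, had 4 intergenic peaks up to 159 and a peak with only 53.2 over the window shown. That window holds no GATAA and lies inside the gene, away from the outer start at 92826074 used for the shares of start peaks above. Of 178 promoters that lay inside a peak and belonged to a gene with an intergenic peak, 18.0% held GATAA on either strand. The share was 20.3% of all 1123 promoters inside a peak and 22.5% of all 21263 promoters. The longer AGATAA, which contains GATAA, was in 3.93%, 7.66% and 9.65% of the same 3 sets. The sequence under the intergenic peaks themselves was not analysed here.

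Myogenic regulators, like the genes of most lists below, were more often the nearest gene of an intergenic peak than all protein coding genes were. Of 26 myogenic regulators, 13 were (exact 95% interval of the share 29.9% to 70.1%), beside 12.4% of all protein coding genes. The 26 genes had a median intergenic space of 46.9 kb, against 14.6 kb for all genes. They had 13.8 peaks per Mb of that space (8.74 to 20.7), beside 5.81 for all genes. Myod1, the myogenic determination factor gene, had 3: a pair at 22.5 and 25.7 kb with scores of 185 and 250, and another at 1.65 kb with 110. Mef2a, a MADS box factor gene, had a peak of 243 placed 8.97 kb before its start. Msgn1 and Msc, basic helix-loop-helix factor genes, had top scores of 213 and 182. Eya4, Tcf4, Eya1, Mrtfb, Mef2d, Myf5, Eya2 and Mymx were also among the 13, while Myog, Pax3, Pax7 and Mef2c were the nearest gene of none. Myf5, the gene targeted in the donor strain, had 1, with a score of 94.0 at 8.41 kb.

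Of 18 satellite cell genes, 10 had an intergenic peak (55.6%, 30.8% to 78.5%), beside 12.4% of all genes. The 18 genes had a median space of 52.6 kb, against 14.6 kb for all genes. Their density was 16.7 per Mb (10.2 to 25.7), beside 5.81 for all genes. The highest scores were those of Megf10 (229), Vcam1 (228), Ncam1 (193) and Itga7 (185). Ncam1, which encodes a cell adhesion molecule, had 5 peaks. Sarcomere genes stood at 5 of 34 (14.7%, 4.95% to 31.1%), beside 12.4% of all genes, and had 11.5 peaks per Mb (4.22 to 25.04), an interval that includes the 5.81 of all genes: Tpm1 (130), Mybpc1 (124), Ttn (110), Des (78.8) and Tnnt3 (71.6).

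Genes that respond quickly to growth signals had the densest intergenic peaks of the lists. Of 20 AP-1 and immediate early genes, 13 had a peak (65.0%, 40.8% to 84.6%), beside 12.4% of all genes. Their density was 30.6 per Mb (19.8 to 45.2), beside 5.81 for all genes. Atf3, a stress-induced factor gene, had a peak of 332 at 50.1 kb before its start. Fos, an AP-1 subunit gene, had 4 beyond its end between 20.3 and 42.4 kb, with scores of 299, 101, 153 and 84.8. Dusp1, which encodes a MAP kinase phosphatase, had one of 167, and Klf6 had its 7. Junb, Egr2, Fosl1, Ier3, Egr1, Fosl2, Nr4a1, Ier5 and Klf4 had scores of 138 or less at their strongest, and Jun, Jund, Fosb and Myc were among the 7 genes with none. Without Klf6 the density was 26.2 per Mb (15.5 to 41.3). With peaks above the median score alone, the share of these genes was 35.0%, beside 7.65% of all genes. Their share was then no longer the highest: satellite cell genes had 44.4%, Notch genes 37.5%, and extracellular matrix and Wnt genes 36.0% each.

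YAP and TEAD genes had 6 of 20 with a peak (30.0%, 11.9% to 54.3%), beside 12.4% of all genes. Their density was 27.1 peaks per Mb (16.5 to 41.8), beside 5.81 for all genes. Of their 20 peaks, 8 were those of Vgll2. Without Vgll2 the density was 18.8 per Mb (9.69 to 32.8). Ankrd1 had scores of 451, 235 and 153, and Tead1, a TEAD factor gene, had 348, 181 and 64.9. Extracellular matrix genes had 13 of 25 with a peak (52.0%, 31.3% to 72.2%), again beside 12.4% of all genes. Their density was 21.1 per Mb (14.3 to 30.2), or 17.6 without Postn. Lamc1, a laminin chain gene, led with 201, followed by the collagen gene Col5a2 with 198, Postn with 189 and Col3a1 with 174. Fn1, Dcn, Lum and Col1a1 were the nearest gene of none.

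**Figure D4:**
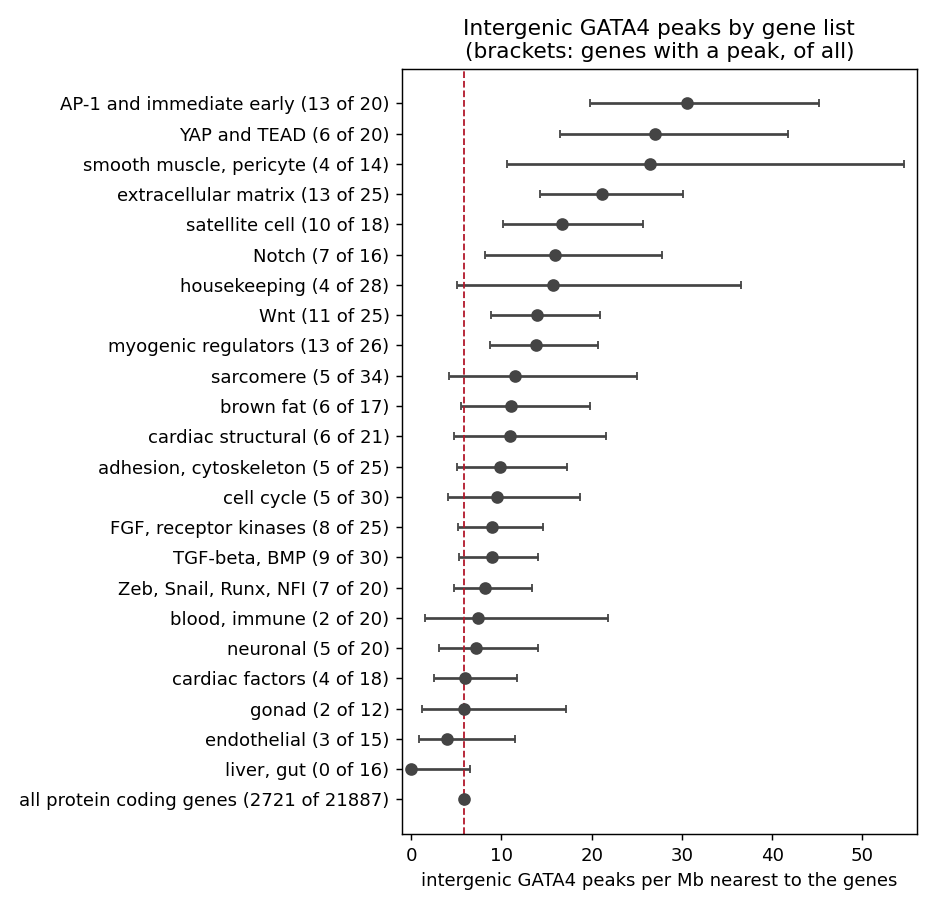
Intergenic GATA4 peaks per Mb of the intergenic sequence nearest to the genes of each list (x axis), with 95% Poisson intervals as bars. All protein coding genes, at 5.81 per Mb and marked by the dashed line, stand last, AP-1 and immediate early genes are highest at 30.6, and liver and gut genes had none.

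By density, signalling lists lay between these and all genes, which stood at 5.81 per Mb and at a share of 12.4%. Of 25 Wnt genes, 11 had an intergenic peak (44.0%, 24.4% to 65.1%; 13.9 per Mb, 8.83 to 20.9). Highest were the factor gene Lef1 (281), Tcf7l2 (208), Dkk2 (197) and Fzd7 (168). Of 16 Notch genes, 7 had one (43.8%, 19.8% to 70.1%; 15.9 per Mb, 8.21 to 27.8). Highest were Rbpj (223), which encodes the DNA-binding partner of Notch, Hes1 (193), Hey2 (182) and Notch3 (153). TGF-beta and BMP genes stood at 9 of 30 (30.0%, 14.7% to 49.4%), with 8.92 per Mb (5.28 to 14.1), an interval that includes the value of all genes. Fst, the gene of the myostatin antagonist follistatin, had 4, with scores of 167, 124, 184 and 311 at 5.21, 31.8, 29.4 and 49.4 kb. Smad3, a signal-transducing SMAD gene, had one of 300 at 3.72 kb before its start, followed by Id2 (182) and Smad6 (165). FGF and receptor kinase genes stood at 8 of 25 (32.0%, 14.9% to 53.5%), led by Hgf (218), Frs2 (216), Dusp6 (213) and Vegfa (175). Their density was 8.99 per Mb (5.14 to 14.6), an interval that also includes the value of all genes.

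Several further lists had densities whose intervals include 5.81, the value of all genes. Their shares stand beside 12.4% of all genes. Those of cell cycle genes (16.7%) and housekeeping genes (14.3%) were close to it. The Zeb, Snail, Runx and NFI list had 7 of 20 genes with a peak and 8.23 per Mb, with Zeb1 (603), Nfia (276), Zeb2 (248) and Tcf21 (205) highest. Adhesion and cytoskeleton genes had 5 of 25 and 9.88 per Mb, with Cdh2 (331), Lpp (316), Tln1 (271) and Itgb1 (149). Brown fat genes had 6 of 17 and 11.1 per Mb, with Pparg (154), Cebpb (138), Ppargc1a (125) and Ppara (113), and Prdm16 and Ucp1 had none. Cell cycle genes had 5 of 30 and 9.48 per Mb, with Ccnb1 (188), Mki67 (153), Cdk6 (124) and Cdk1 (91.8). Housekeeping genes had 4 of 28 and 15.7 per Mb, in only 0.319 Mb of space, among them Ywhaz (129), Actb (104) and Eef1a1 (70.4).

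Gene lists of the organs GATA4 is best known from had densities whose intervals include the 5.81 per Mb of all genes on all chromosomes. Their shares stand beside 12.4% of all genes. None of 16 liver and gut genes was the nearest gene of an intergenic peak, which allows a share of up to 20.6% (exact 95% bound), in 0.568 Mb of space (0 to 6.49 per Mb). That bound of 6.49 per Mb is above 5.81 but below the 6.64 per Mb of all genes on the autosomes. Where both flanking genes were counted, the share of liver and gut genes was 18.8%, beside 17.9% of all genes. Of 12 gonad genes 2 were, Inhba (138) and Sox9 (65.1), with 5.88 per Mb (1.21 to 17.2). Of 18 cardiac factor genes 4 were (22.2%, 6.41% to 47.6%; 5.97 per Mb, 2.58 to 11.8): Myocd (201), Hand2 (198), Zfpm2 (158), which encodes the GATA cofactor FOG2, and Gata6 (64.4). Gata4 itself and Nkx2-5 were not, nor was Gata2, which is in the mixed set below rather than in this list. Cardiac structural genes stood at 6 of 21 (28.6%; 11.0 per Mb, 4.73 to 21.6), with Ankrd1 (451), Ryr2 (119), Nppa (110) and Gja1 (110).

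Markers of endothelial, blood and neuronal cells, which a muscle preparation could hold, had shares whose intervals include the 12.4% of all genes. Endothelial markers had 3 of 15 (4.33% to 48.1%; 3.95 per Mb), Emcn (165), Flt1 (110) and Vwf (65.0), and blood and immune markers had 2 of 20 (1.23% to 31.7%; 7.46 per Mb), Ptprc (214) and Gata3 (129). Neuronal markers had 5 of 20 (8.66% to 49.1%; 7.15 per Mb), Map2 (350), Nefl (182), Slc17a6 (124), Neurod1 (97.0) and Dcx (62.3). Smooth muscle and pericyte genes had 4 of 14 (8.39% to 58.1%) and 26.5 per Mb (10.7 to 54.6), with Pdgfrb (233), Notch3 (153), Smtn (118) and Des (78.8). Smtn alone had 4 of their 7 peaks, and without it the density was 12.8 per Mb (2.64 to 37.4).

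Of a mixed set of 29 muscle, cardiac and growth genes, which overlaps the lists above, 14 had an intergenic peak (48.3%, 29.4% to 67.5%; 18.2 per Mb). All genes stood at 12.4% and 5.81 per Mb. Ccn1, a secreted YAP target gene, had peaks of 124 and 77.6. Fosl1, an AP-1 subunit gene, had one of 110 at 2.45 kb. Ccnd1, the cyclin D1 gene, had one of 79.0 at 86.1 kb, and Snai2, a Snail family repressor gene, had one of 69.6 at 1.84 kb. Myf6, Ccnd2, Cdkn1a, Ccn2, Myh6 and Acta1 had none, and Myh6 had no intergenic space of its own.

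Chromosomes differed in the density of these peaks even within the sequence the rule allows. Chromosome 10 had 352 peaks, or 10.8 per Mb (9.70 to 12.0), against 6.42 per Mb (6.21 to 6.62) on the other autosomes together. Chromosome X had 75 peaks, or 1.22 per Mb (0.959 to 1.53), against 6.64 per Mb (6.44 to 6.85) on all autosomes, and chromosome Y had 1 peak. Chromosome 14 was the lowest autosome at 3.19 per Mb (2.55 to 3.92). Median scores were 110 on chromosome 10, 97.0 on X and 97.7 on chromosome 14. Of all peaks on X, 37.1% were intergenic and near genes, the largest share of any chromosome, against 21.5% on chromosome 10.

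**Figure D5:**
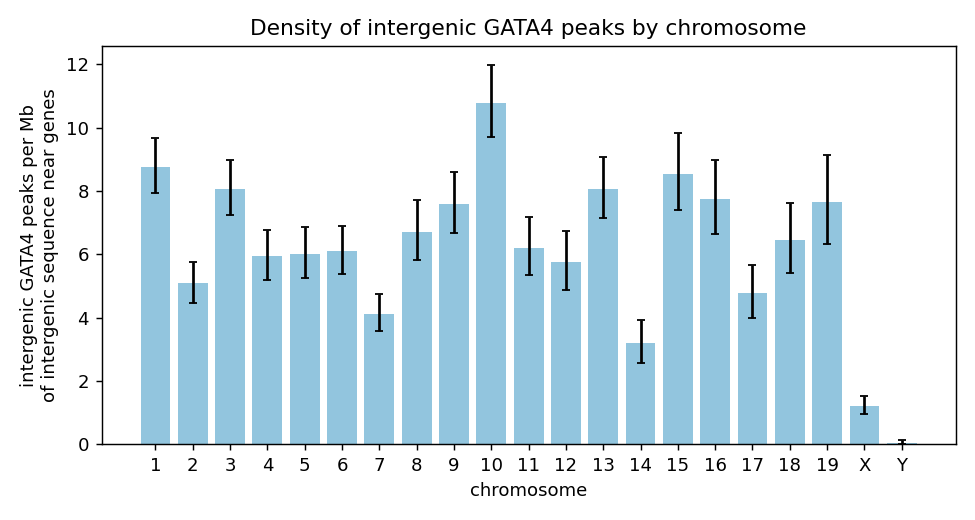
Intergenic GATA4 peaks per Mb of intergenic sequence within 100 kb of a protein coding gene (y axis) for each mouse chromosome (x axis). Bars start at 0 with 95% Poisson intervals, and run from 0.0246 per Mb on Y and 1.22 on X to 10.8 on chromosome 10.

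The peaks nearest to the limits of the rule had the following scores. The 2 peaks just inside the 1 kb limit lay 1.00 kb from Lamb2 and from the lncRNA gene Gm36193, with scores of 71.0 and 138. The 2 just outside it lay 0.990 kb from Dis3l2 and 0.9995 kb from Pbx3, with scores of 194 and 92.2. The 2 just inside the 100 kb limit, nearest to Tcf4 and Ssbp2 at 99.8 kb each, scored 119 and 175, and the 2 just outside it, nearest to Mfap3l and Tprg at 100.2 kb each, scored 140 and 110.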

How the data were processed

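The authors deposited 1 list of GATA4 peaks, giving the position and the MACS score of every peak, called with MACS run in Galaxy per the file header. The build is GRCm38 (mm10) and the tools named are Bowtie and CASAVA 1.8, per the submitters' processing notes. The sources used here do not give the MACS and Bowtie versions, the handling of duplicates, the threshold or the use of the IgG library, and the depth is unknown. The score was used only to describe and rank peaks of this list. Genes came from a RefSeq table of GRCm38.p6 with 21887 protein coding and 12727 lncRNA genes, and strand from the RefSeq promoter table (17492 protein coding genes). Intergenic length was measured in steps of 10 bp, and each position and peak centre went to the nearest protein coding gene end. Position calls were tested on simulated data. Intervals are exact binomial or Poisson, at 95%. Python 3.11.15, pandas 2.3.3 and scipy 1.17.1 were used.

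Of 485 genes in 24 lists, 484 matched by symbol. Named are the 25 highest-scoring peaks, the 15 genes with most peaks (ties kept), up to 4 genes per list by score, the 5 longest runs, the peaks at each limit, the peaks next to these and a set of 29 genes. The members and lists were chosen with earlier results of these data known, and microRNAs, promoters and other genes or list members named were picked after seeing the values. Some genes that this rule would name are not reported here.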

Additional observations from a re-analysis of the deposited data

How the results depend on the processing

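The number of intergenic peaks near genes, 4220, ranged from 3292 to 5282 over the 5 other ways of setting distances, genes and peak position, with median scores of 105 to 107, median widths of 743 to 748 bp and 7.99% to 8.61% of the peaks on chromosome 10. Among peaks above the median score of the list the number was 2263 and the median score 141, by construction, and the median width was 789 bp, for which the cause was not tested. The share with another peak nearby was 25.9% within 5 kb and 57.8% within 25 kb, in place of 38.4% within 10 kb. The share of protein coding genes with an intergenic peak, 12.4%, was 17.9% with both flanking genes, 10.8% within 50 kb and 7.65% with peaks above the median score. On the autosomes alone, a choice made after seeing the data like the lists without their leading gene, the densities were 6.64 per Mb near genes and 3.23 per Mb far from them. Of 24 gene lists, 22 had a share above that of all genes as reported. With both flanking genes, within 50 kb, with peaks above the median score and without chromosome 10, 24, 20, 23 and 22 did. Shares do not allow for the intergenic space of a gene, whose median was 14.6 kb for all genes. It was 46.9 kb for myogenic regulators, 53.3 kb for Wnt genes and 59.0 kb for matrix genes, but 3.21 kb for housekeeping genes. The densities are counts per Mb of that space. AP-1 and immediate early genes alone left their interval of 40.8% to 84.6% under these, with a share of 35.0% in place of 65.0% for peaks above the median score. The planned motif search under the peaks was not run, since no genome sequence was used here. No paired analysis was possible because each antibody has 1 library. Unknown depth and the missing replicate limit every value.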

Other observations

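A few scores recurred among the intergenic peaks near genes. The 6 most frequent values (84.08, 97.04, 110.42, 124.17, 138.27 and 71.57) were shared by 820 peaks, or 19.4%. These peaks had a median width of 504 bp and none was wider than 600 bp, while the other 3400 had a median of 792 bp and reached 2990 bp. Among the genes of the lists, the strongest intergenic peaks of Fosl1, Nppa, Gja1, Mrtfb, Flt1 and Tgfbr2 carry the value 110.42, those of Ccn1, Mybpc1, Slc17a6, Palld and Cdk6 the value 124.17, those of Tnnt3, Mstn, Maml1, Col6a1 and Dio2 the value 71.57, and those of Lamb1, Col4a1, Junb, Inhba, Tcf7, Ctnnb1, Rspo3, Igf1 and Cebpb the value 138.27.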
